A study of Homo sapiens with 8 samples.

Results

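The genes described here are 51 genes of mitosis and of the G2 phase that leads into it, followed through 24 h of hypoxia in SJRH30 cells. They were chosen by symbol: every probe set whose annotated symbol was exactly one of the 51 names was taken, which gave 78 probe sets. All 51 were on the array, among 11963 genes tested, and each gene was represented by its probe set with the highest mean signal. SJRH30 is an alveolar rhabdomyosarcoma line, a tumour line of the skeletal muscle lineage, and every group came from this single line grown in RPMI 1640 with 10% fetal bovine serum. The 4 groups were cells before hypoxia (0 h) and cells exposed to 1% oxygen in a hypoxic chamber for 6, 12 or 24 h, with 2 arrays per time that the labels call biological replicates. Nothing in the labels says whether these came from separate cultures, so the p-values measure the spread between these arrays. Cells kept in normal oxygen for the same times were not analysed here, so the effects of hypoxia and of longer culture cannot be told apart.

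Entry into mitosis is driven by CDK1 bound to cyclins A and B, after CDC25 phosphatases remove an inhibitory phosphate and kinases of the Polo and Aurora families act. The spindle is then built by motors and microtubule-binding proteins, and the checkpoint at the kinetochores holds back the anaphase-promoting complex until all chromosomes are attached. Transcripts of these genes are low in G1 and peak in G2 and mitosis, through repression by the DREAM complex at CHR elements (cell cycle genes homology regions) and activation by B-MYB, FOXM1 and, at CCAAT boxes, NF-Y. In rhabdomyosarcoma, as in other tumours, they follow the share of cells that are dividing. In RNA from bulk cells, fewer cells in G2 and mitosis and less RNA of a gene per cell cannot be told apart.

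Promoter windows are shown for the 5 genes with the largest called rise at 6 h, because these carry the 6 h result and because the members share promoter elements that the choice by name did not use. Each runs from 250 bases before to 50 bases after the RefSeq start on build GRCh38.p14 and is written 5′ to 3′ on the gene's own strand. Capitals mark CHR elements (TTTGAA or TTCGAA, on either strand) and CCAAT boxes (CCAAT on either strand).
HMMR (chr5:163460382-163460681, plus strand): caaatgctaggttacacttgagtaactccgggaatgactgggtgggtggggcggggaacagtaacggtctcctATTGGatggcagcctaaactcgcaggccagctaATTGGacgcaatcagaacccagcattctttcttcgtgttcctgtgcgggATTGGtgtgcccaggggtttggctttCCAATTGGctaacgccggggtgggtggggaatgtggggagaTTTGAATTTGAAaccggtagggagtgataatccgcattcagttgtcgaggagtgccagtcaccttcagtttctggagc
ASPM (chr1:197146620-197146919, minus strand): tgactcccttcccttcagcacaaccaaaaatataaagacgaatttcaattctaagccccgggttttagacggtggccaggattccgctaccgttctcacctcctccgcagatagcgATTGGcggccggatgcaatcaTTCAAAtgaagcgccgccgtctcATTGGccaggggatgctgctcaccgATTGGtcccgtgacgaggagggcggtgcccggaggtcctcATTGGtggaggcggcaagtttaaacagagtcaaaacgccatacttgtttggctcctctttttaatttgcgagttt
BUB1 (chr2:110678014-110678313, minus strand): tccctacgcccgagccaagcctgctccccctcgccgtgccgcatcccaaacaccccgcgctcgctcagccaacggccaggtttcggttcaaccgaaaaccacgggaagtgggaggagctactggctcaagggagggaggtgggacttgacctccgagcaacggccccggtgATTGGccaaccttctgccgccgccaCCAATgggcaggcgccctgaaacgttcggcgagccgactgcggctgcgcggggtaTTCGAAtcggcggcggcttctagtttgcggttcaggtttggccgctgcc
DLGAP5 (chr14:55191536-55191835, minus strand): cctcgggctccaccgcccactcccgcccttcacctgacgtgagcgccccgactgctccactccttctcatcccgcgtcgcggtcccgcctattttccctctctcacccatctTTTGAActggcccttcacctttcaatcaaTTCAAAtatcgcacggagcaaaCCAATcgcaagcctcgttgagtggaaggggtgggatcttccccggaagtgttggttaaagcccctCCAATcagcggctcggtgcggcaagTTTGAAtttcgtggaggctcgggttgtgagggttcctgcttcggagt
CDC25C (chr5:138338306-138338605, minus strand): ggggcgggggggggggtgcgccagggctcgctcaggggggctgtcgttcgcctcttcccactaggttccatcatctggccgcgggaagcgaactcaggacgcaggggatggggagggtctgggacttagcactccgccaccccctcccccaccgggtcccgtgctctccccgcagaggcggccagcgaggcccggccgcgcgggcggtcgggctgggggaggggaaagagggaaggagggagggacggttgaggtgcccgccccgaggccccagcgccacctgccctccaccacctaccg

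Counting the start base as 1, with no 0, the HMMR window held 2 adjoining CHR elements, at -28 and -22, and 5 CCAAT boxes between -177 and -62, the last pair overlapping. ASPM held a CHR element at -113 and CCAAT boxes at -134, -90, -65 and -25. BUB1 held a CHR element just past its start, at position 2, and CCAAT boxes at -79 and -54. DLGAP5 had CHR elements at -138, -109 and 4, with CCAAT boxes at -87 and -22 between the outer ones. The CDC25C window held neither set of letters.

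The pair of elements was common among the members. Promoter windows were matched for 42 of the 51 genes. A CHR element lay in 30 of them, or 71.4%, against 12.4% of the 9563 windows of all genes tested and 16.6% of all 27305 windows in the table. A CCAAT box lay in 32, or 76.2%, against 37.3% of all genes tested and 35.7% of all windows, and both elements lay in 26, or 61.9%, against 5.25% and 6.58%. In 27 members a CHR element lay within 100 bases before the start or in the 50 bases after it, as in CCNB2 and CKS2 at -29, KIF11 at -28 and BUB1B at -23.

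Shares of other letters lay nearer to those of all genes. A 7-letter E2F match (TTCGCGC or the form TTGGCGC, also counted as TTCCCGC and as the form TTGCCGC) lay on either strand of 14 member windows, or 33.3%, against 18.7% of all genes tested and 13.1% of all windows. The core letters of the hypoxia response element, ACGTG or GCGTG on either strand, lay in 28, or 66.7%, against 58.7% and 48.4%. Motifs were counted separately and could overlap each other. In windows of S-phase genes the picture differed in part: 78.4% of 37 held an E2F heptamer and 8.11% a CHR element, but 67.6% a CCAAT box. Windows of other mitosis genes, a list described below, were closer to the members. Of 48, a CHR element lay in 62.5%, a CCAAT box in 62.5% and both in 43.8%. Within the members, a CHR element was in 6 of 8 windows of genes called higher at 6 h and in 24 of 34 windows of those not called (75% and 70.6%). The hypoxia core was in 3 of 8 (37.5%) and 25 of 34 (73.5%), which is given as a description of few windows. A match of letters is not a bound site.

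**Figure D1:**
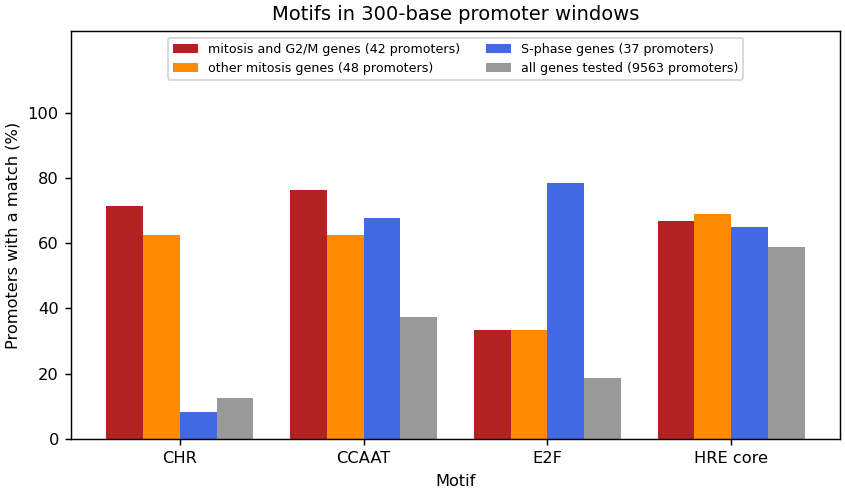
Bars give the percentage of 300-base promoter windows (vertical axis, from 0) with at least 1 match to each motif (horizontal axis), for the 51 mitosis and G2/M genes (42 windows), 57 other mitosis genes (48), 46 S-phase genes (37) and all genes tested (9563). CHR elements are in 71.4% of the mitosis and G2/M windows and 12.4% of all, while E2F heptamers are most frequent in S-phase genes, at 78.4%.

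The arrays were close to each other. Replicates correlated across genes at 0.997 to 0.999 and arrays of different times at 0.993 to 0.998, and genes are not independent replicates. The labels describe the cells as muscle fibroblasts, while genes typical of rhabdomyosarcoma gave brighter signals than most fibroblast markers. At 0 h the 10 rhabdomyosarcoma genes had array medians of 9.88 and 9.80 on the log2 scale, running from MYF5 at 4.12 to the myogenic regulator MYOD1 at 12.1. The 8 fibroblast markers had medians of 5.78 and 5.75, running from POSTN at 3.67 to COL1A1 at 8.19. None of the 8 fibroblast markers was called at 6, 12 or 24 h. Array medians at 0 h were 4.68 and 4.38 for 5 leukocyte markers and 5.48 and 5.49 for 6 epithelial markers. Those of 5 endothelial markers were 4.92 and 4.99. The defining genes of these lists, PTPRC, CDH1 and CDH5, were at 3.51, 4.15 and 4.85 at 0 h. The brightest leukocyte, epithelial and endothelial markers were at 7.75, 6.62 and 7.81 on 0 h replicate 1, where the median of all genes was 7.26. In these lists ITGB2 was called higher at all 3 hypoxic times (0.53, 1.13 and 1.70 at 6, 12 and 24 h), TEK at 6 and 24 h (0.31 and 0.37) and EPCAM at 24 h (0.41), and no other marker was called. Poly-A spike controls, added RNA that should not follow the cells, averaged 7.27 on both 0 h arrays, 7.60 and 7.62 at 6 h, 7.60 and 7.61 at 12 h and 7.77 and 7.80 at 24 h. Hybridisation spike controls averaged 9.78 and 9.82 at 0 h, 10.09 and 10.06 at 6 h, 9.94 and 9.97 at 12 h, and 9.99 on both 24 h arrays. Both kinds stood higher at each hypoxic time than at 0 h, the hybridisation controls highest at 6 h as the members' median was, and their part in the results below was not tested.

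After 6 h in 1% oxygen, mitosis and G2/M transcripts stood slightly above their level before hypoxia. The mean log2 change was above 0 in 46 of the 51 genes, with a median of 0.13 and a range of -0.14 to 0.45, against a median of -0.02 over all genes tested. A total of 9 were called higher (17.6%; 2.32% of all genes tested were) and 0 lower (1.22% of all genes were). Calls here and below are those with an adjusted p under 0.05 from limma. The 9 were HMMR, ASPM, BUB1, DLGAP5, CDC25C, AURKA, NUSAP1, MKI67 and CENPE. In 41 members (80.4%) both 6 h arrays lay above both 0 h arrays, against 23.6% of all genes, and in 3 both lay below, against 31.6% of all genes.

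The members' probe sets had bright signals, and 44 were among the brightest 25% of genes by mean signal, where 4.75% of 2991 genes were called higher at 6 h. This set was chosen as a second background after the values were seen. The array by array picture was the same on both 6 h arrays. The median member stood 0.15 above its 0 h mean on replicate 1 of 6 h and 0.14 above it on replicate 2, with 44 and 45 of 51 genes above 0. The calls needed all 4 arrays. Without either 0 h or either 6 h array, the members' median change at 6 h ran from 0.13 to 0.16, with 44 to 46 positive. The median over all genes ran from -0.02 to -0.01. With all arrays 25 members were higher and 1 lower at an unadjusted p under 0.05 in limma, against 9.12% and 10.1% of all genes.

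**Figure D2:**
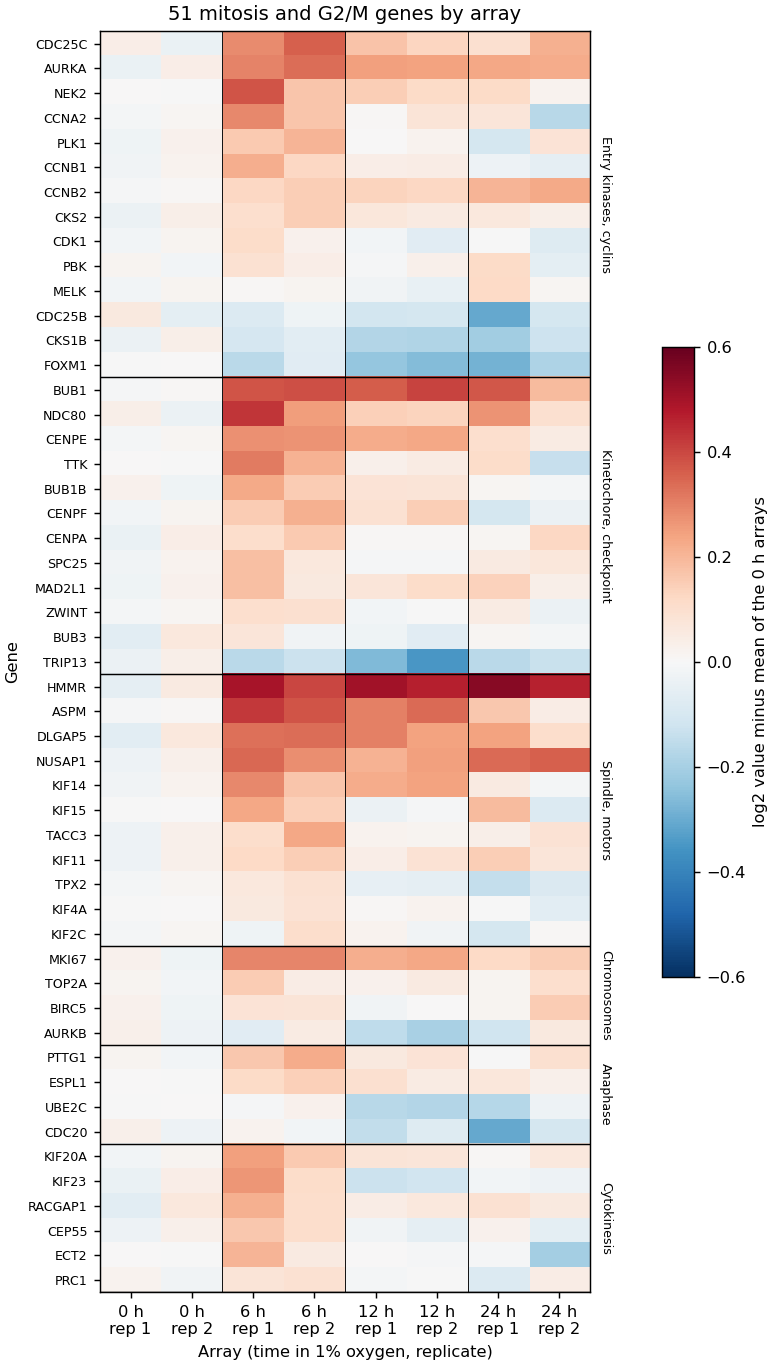
Each row is 1 of the 51 genes, grouped by role, and each column is 1 array in order of time in 1% oxygen; colour gives the log2 value minus the mean of the 0 h arrays of that gene (red above, blue below). Most rows are red on both 6 h arrays and paler at 12 and 24 h, while HMMR and NUSAP1 stay red and FOXM1 and TRIP13 are blue from 6 h on.

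Spindle and motor genes held more calls at 6 h than any other role. Of 11 genes 4 rose and all 11 had a positive change, with a median of 0.19. HMMR, which encodes a microtubule-binding protein of the spindle, was at 11.06 and 11.16 at 0 h, 11.60 and 11.51 at 6 h, 11.61 and 11.57 at 12 h, and 11.65 and 11.57 at 24 h. Every hypoxic array lay above both 0 h arrays, and the 3 hypoxic times overlapped each other. HMMR rose by 0.45 ± 0.07 (SE of the fit, adjusted p = 0.0124) at 6 h, a 1.36-fold difference, by 0.48 at 12 h and by 0.50 at 24 h (adjusted p = 0.00348 and 0.00252). A second probe set of HMMR changed by 0.36 at 6 h.

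ASPM, which encodes a spindle pole protein, followed another course. It was at 10.84 and 10.85 at 0 h, 11.27 and 11.22 at 6 h, 11.15 and 11.18 at 12 h, and 11.01 and 10.89 at 24 h. The arrays of the 4 times did not overlap, with 6 h highest and 24 h between 12 h and 0 h. ASPM rose by 0.40 ± 0.06 at 6 h (adjusted p = 0.0135) and by 0.32 at 12 h (adjusted p = 0.0117), while the change at 24 h was 0.10 (adjusted p = 0.297).

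DLGAP5, whose product stabilises spindle fibres near the chromosomes, was at 10.45 and 10.58 at 0 h, 10.84 and 10.85 at 6 h, 10.81 and 10.75 at 12 h, and 10.75 and 10.62 at 24 h. Each hypoxic array was above both 0 h arrays. DLGAP5 rose by 0.33 ± 0.07 at 6 h (adjusted p = 0.0487) and by 0.27 at 12 h (adjusted p = 0.0351), and its 24 h change was 0.17 (adjusted p = 0.140). NUSAP1, which encodes a spindle microtubule bundler, rose by 0.31 ± 0.06 at 6 h (adjusted p = 0.0284), 0.23 at 12 h and 0.35 at 24 h. Its second probe set had a change of 0.11 at 6 h that was not called.

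Of the motors in this role, KIF14 alone was called, at 12 h. KIF14, a kinesin of late mitosis, had a change of 0.23 at 6 h that was not called (adjusted p = 0.103), rose by 0.23 at 12 h and had a change of 0.02 at 24 h. KIF11, the kinesin that separates the spindle poles, had changes of 0.13, 0.06 and 0.11 at 6, 12 and 24 h, none called. The smallest 6 h change of this role belonged to KIF2C, a kinesin that takes microtubules apart. Its arrays were at 10.36 and 10.39 at 0 h and 10.35 and 10.48 at 6 h, which overlapped, and its changes were 0.04, -0.00 and -0.05 at 6, 12 and 24 h.

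Kinetochore and checkpoint genes rose in 2 of 12 cases at 6 h, with a median change of 0.16 and 11 positive. BUB1, a checkpoint kinase, was at 9.82 and 9.83 at 0 h, 10.20 and 10.21 at 6 h, 10.19 and 10.23 at 12 h, and 10.20 and 10.01 at 24 h. All 6 hypoxic arrays lay above both 0 h arrays. BUB1 rose by 0.38 ± 0.07 at 6 h (adjusted p = 0.0297), by 0.38 at 12 h (adjusted p = 0.00988) and by 0.28 at 24 h (adjusted p = 0.0296).

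CENPE, a kinesin that carries chromosomes to the spindle equator, was at 10.51 and 10.53 at 0 h, 10.79 on both 6 h arrays, 10.75 on both 12 h arrays, and 10.62 and 10.57 at 24 h. The 4 times did not overlap. CENPE rose by 0.27 ± 0.05 at 6 h (adjusted p = 0.0365) and by 0.23 at 12 h (adjusted p = 0.0235), and its 24 h change was 0.08 (adjusted p = 0.390).

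Several other kinetochore genes had changes of similar size that were not called. NDC80, the microtubule-binding subunit of its complex, had a 6 h change of 0.34 ± 0.08 (adjusted p = 0.0729). TTK, the kinase that starts checkpoint signalling, was at 10.64 and 10.54 at 6 h, against 10.33 on both 0 h arrays, a change of 0.26 (adjusted p = 0.152). TRIP13, an ATPase that takes the checkpoint complex apart, went the other way. It was at 9.62 and 9.70 at 0 h, 9.50 and 9.53 at 6 h, 9.40 and 9.31 at 12 h, and 9.50 and 9.53 at 24 h, with every hypoxic array below both 0 h arrays. Its change was -0.14 at 6 h (adjusted p = 0.238), it fell by 0.31 at 12 h (adjusted p = 0.0122), and the 24 h change was -0.15 (adjusted p = 0.130).

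The kinases, cyclins and regulators of entry rose in 2 of 14 cases at 6 h, with a median change of 0.13 and 11 positive. CDC25C, a phosphatase that activates CDK1, was at 8.19 and 8.11 at 0 h, 8.44 and 8.51 at 6 h, 8.32 and 8.28 at 12 h, and 8.25 and 8.37 at 24 h. The 6 h arrays were the highest and the 12 h and 24 h arrays overlapped each other. CDC25C rose by 0.32 ± 0.07 at 6 h (adjusted p = 0.0444), and its changes of 0.15 at 12 h and 0.16 at 24 h were not called.

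AURKA, the kinase of the spindle poles, was at 12.02 and 12.09 at 0 h, 12.35 and 12.39 at 6 h, 12.30 on both 12 h arrays, and 12.29 and 12.28 at 24 h. All hypoxic arrays were above both 0 h arrays and the 6 h arrays were highest. AURKA rose by 0.32 ± 0.05 at 6 h (adjusted p = 0.0245), 0.24 at 12 h (adjusted p = 0.0213) and 0.23 at 24 h (adjusted p = 0.0263). Another AURKA probe set had a 6 h change of 0.08 and one more 0.35, neither called when every probe set was tested on its own.

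CDK1 and the main mitotic cyclins were not called at any time. CDK1 was at 12.37 and 12.29 at 6 h, against 12.25 and 12.28 at 0 h, a change of 0.07 (adjusted p = 0.624). CCNA2 and CCNB1, those cyclins, had 6 h changes of 0.23 and 0.17 and 24 h changes of -0.05 and -0.04, none called. CCNB2 was the one cyclin called: it rose by 0.22 at 24 h (adjusted p = 0.0255), after uncalled changes of 0.13 at both earlier times. The CDK-binding proteins CKS1B and CKS2 had 6 h changes of -0.08 and 0.12, neither called.

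FOXM1, the transcription factor that drives many genes of G2 and mitosis, had the lowest 6 h change of its role. It was at 9.10 on both 0 h arrays, 8.94 and 9.03 at 6 h, 8.87 and 8.84 at 12 h, and 8.82 and 8.91 at 24 h. All hypoxic arrays lay below both 0 h arrays. The 6 h change was -0.12 (adjusted p = 0.360), and FOXM1 fell by 0.25 at 12 h (adjusted p = 0.0285) and by 0.23 at 24 h (adjusted p = 0.0348). FOXM1 and the genes called higher at 6 h therefore had changes of opposite sign at each time.

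Among genes of the chromosomes and the passenger complex, MKI67 rose and the probe sets used for the other 3 were not called at any time. MKI67, which encodes the Ki-67 protein that coats mitotic chromosomes, was at 9.57 and 9.52 at 0 h, 9.84 on both 6 h arrays, 9.76 and 9.78 at 12 h, and 9.66 and 9.69 at 24 h, again with no overlap between times. It rose by 0.29 ± 0.05 at 6 h (adjusted p = 0.0279) and by 0.23 at 12 h (adjusted p = 0.0243), and its 24 h change was 0.13 (adjusted p = 0.129). Its 3 other probe sets had 6 h changes of 0.23, 0.20 and -0.03, none called when every probe set was tested on its own. AURKB, the kinase of the passenger complex, was at 9.01 and 9.13 at 6 h, against 9.11 and 9.05 at 0 h, and these overlapped. TOP2A, a topoisomerase that untangles chromosomes, and BIRC5, a passenger subunit, had 6 h changes of 0.10 and 0.08. Another BIRC5 probe set, tested on its own, had a 6 h change of 0.25 that was not called. It was called higher at 24 h, by 0.27 (limma adjusted p = 0.0463). One more had changes of 0.13 at both times, not called.

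None of the 4 genes of anaphase and mitotic exit was called at any time. CDC20, an activator of the anaphase-promoting complex, was at 10.49 and 10.43 at 0 h, 10.48 and 10.44 at 6 h, 10.31 and 10.38 at 12 h, and 10.15 and 10.35 at 24 h. The 0 h and 6 h arrays overlapped and all later arrays lay below them, with changes of 0.00, -0.11 and -0.21 at 6, 12 and 24 h. UBE2C, the ubiquitin-conjugating enzyme of that complex, had changes of 0.01, -0.17 and -0.10. PTTG1, which encodes securin, had the largest 6 h change of this role, at 0.19 (adjusted p = 0.131).

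None of the 6 cytokinesis genes was called, though their arrays fell in the same order. In all 6 both 6 h arrays lay above both 0 h arrays, against 23.6% of all genes. Their changes ran from 0.08 to 0.20, with a median of 0.15. KIF20A, a kinesin of the midzone, was at 10.27 and 10.18 at 6 h, against 10.01 and 10.05 at 0 h, a change of 0.20 (adjusted p = 0.112). PRC1, which crosslinks midzone microtubules, had the smallest change, with 11.08 and 11.09 at 6 h against 11.02 and 10.98 at 0 h. In all 6 genes both 24 h arrays also lay below both 6 h arrays, against 24.1% of all genes.

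**Figure D3:**
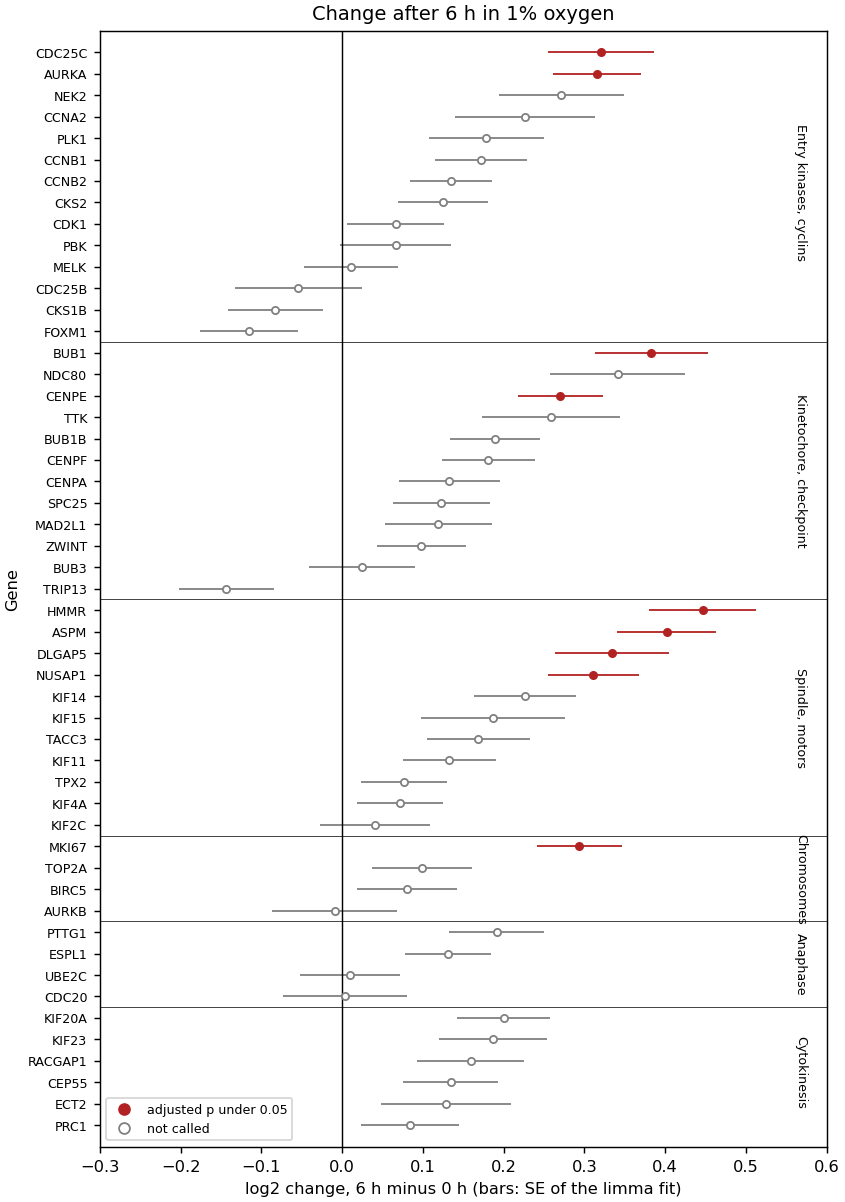
Points give the log2 change of each of the 51 genes at 6 h relative to 0 h (horizontal axis), grouped by role, with bars of 1 standard error of the limma fit; filled points are called at an adjusted p under 0.05. The 9 filled points lie between 0.27 and 0.45, and 46 of 51 points lie above 0.

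At 12 h 9 members were called higher (7.13% of all genes tested) and 2 lower (11.3% of all genes), with a median change of 0.04 and 31 positive. Both 12 h arrays lay above both 0 h arrays in 25 members and below them in 12, against 29.6% and 34.2% of all genes. Of the 9 risers of 6 h, 8 were called again and KIF14 joined them, while CDC25C was not called and TRIP13 and FOXM1 fell. At 24 h 5 members were called higher (8.59% of all genes) and 1 lower (9.15% of all genes), with a median of 0.04 and 31 positive. The 5 were HMMR, NUSAP1, BUB1, AURKA and CCNB2, and the fall was in FOXM1. Without adjustment 8 were higher and 5 lower at a p under 0.05, against 14.1% and 17.2% of all genes, and the 24 h arrays did not overlap those of 0 h in 19 members above and 10 below (26.6% and 32.3% of all genes). The members' share at 24 h, 9.80%, was near the background, and below the 12.7% of the brightest 25%. The time comparisons with 0 h share the 0 h arrays. Without 0 h replicate 1 or 2 the members' median change was 0.02 and 0.04 at 12 h, and 0.02 and 0.04 at 24 h. Without 12 h replicate 1 or 2 the 12 h median was 0.04 and 0.02. In each of these settings the members called higher fell to a share below that of all genes.

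Most members had lower means at 12 and 24 h than at 6 h, and 1 gene passed the test of that difference in the main fit. At 24 h compared with 6 h, ASPM fell by 0.30 ± 0.06 (adjusted p = 0.0496, with 0.936% of all genes called lower). Of the members 0 were called higher (1.85% of all genes). When every probe set was tested on its own in limma, ASPM was not called (adjusted p = 0.0653). A CCNA2 probe set other than the one used was then called lower, by 0.31 (adjusted p = 0.0459). The change was below 0 in 46 of 51 members, against 49.5% of all genes, with a median of -0.11, and in 34 members (66.7%) both 24 h arrays lay below both 6 h arrays, against 24.1% of all genes. At an unadjusted p under 0.05 in limma, 19 members were lower and 0 higher, against 9.36% and 9.67% of all genes. The ASPM call was lost without any 1 of the 8 arrays.

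At 12 h compared with 6 h, 0 members were called in either direction by limma (0.0585% of all genes lower and 0.142% higher), and at an unadjusted p under 0.05 11 were lower and 0 higher (11.6% and 10.4% of all genes). The change was below 0 in 48 members, with a median of -0.11, and both 12 h arrays lay below both 6 h arrays in 44 (86.3%), against 30.3% of all genes. The largest was in KIF23, a motor of the central spindle, at -0.31 (adjusted p = 0.0925). Part of this shift was shared by bright genes: in the brightest 25% the median 12 h change from 6 h was -0.05. The change was above 0 in 29.9% of these bright genes, against 49.7% of all genes and 5.88% of the members. The spread of values was narrower on the 12 h arrays, with interquartile ranges of 3.83 and 3.77, against 3.91 to 3.97 on the others. With further quantile normalization the members' median 12 h change from 6 h was -0.06 with 43 negative, and that of the brightest 25% was -0.00. At this setting 1 member was lower unadjusted, against 9.58% of all genes. That unadjusted count was 5 after median centring, against 9.2% of all genes, so both counts were below or near the background. The count of 11 fell when any 0 h, 6 h or 12 h array was left out, and rose without either 24 h array. Without 6 h replicate 1 or 2 the members' median change was -0.08 or -0.11. It was -0.10 without either 12 h array. The 24 h comparison with 12 h called 0 members in either direction in limma (0.0585% of all genes lower, 0.184% higher; 4 lower and 1 higher unadjusted, against 7.58% and 9.8% of all genes), with a median of -0.00. Both 24 h arrays lay below both 12 h arrays in 12 members and above them in 11, against 20.8% and 24.5% of all genes.

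The 9 genes called at 6 h were chosen by their 6 h values, which by itself favours lower values at other times, so their later changes are given as a description. Their median change was 0.32 at 6 h, 0.24 at 12 h and 0.17 at 24 h. The 24 h change was 27.8% of the 6 h change in CENPE, 25.9% in ASPM, 45.5% in MKI67, 48.6% in CDC25C and 51.9% in DLGAP5. It was 72.4% in AURKA, 73.8% in BUB1 and 112% in both HMMR and NUSAP1. These percentages are ratios of means of 2 arrays and were not tested against each other. Over all members, the mean was highest at 6 h in 39 of 51 genes, against 16.2% of all genes, and at 24 h in 5, at 12 h in 2 and at 0 h in 5. The 24 h mean lay below the 0 h mean in 20 members.

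**Figure D4:**
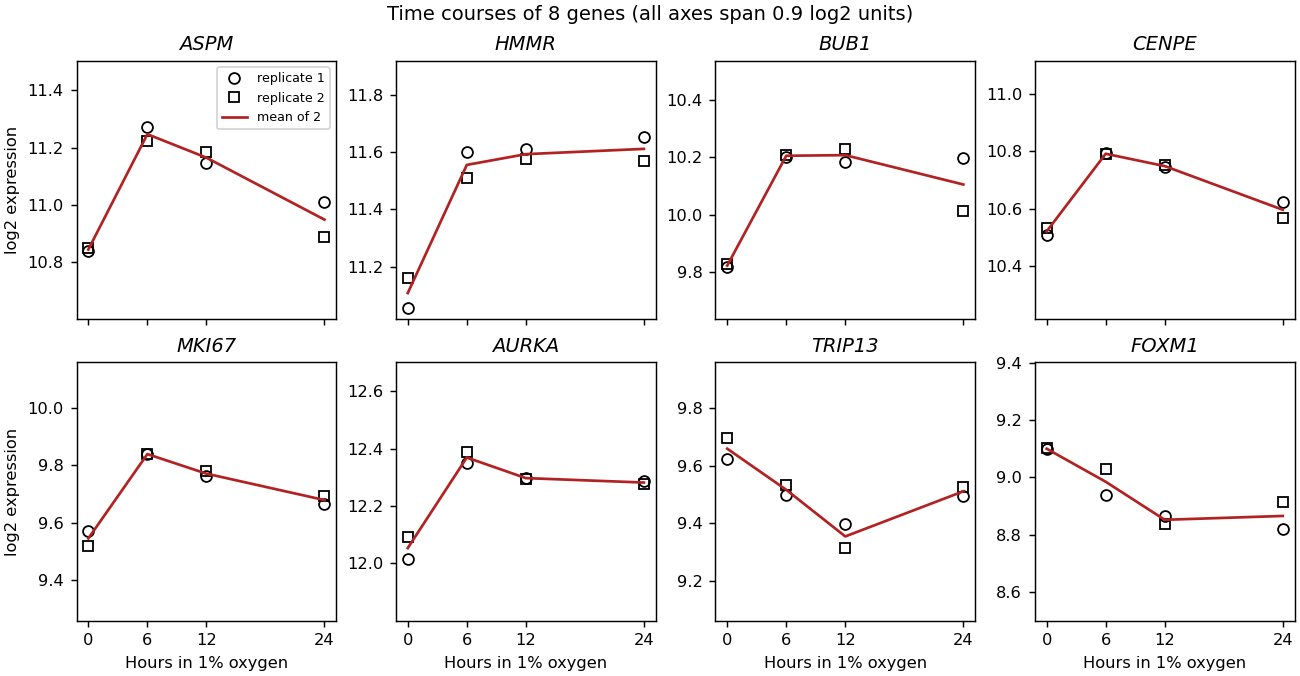
Log2 expression (vertical axes, each spanning 0.9) is plotted against hours in 1% oxygen for 8 genes, with circles for replicate 1, squares for replicate 2 and a line through the means. ASPM, CENPE and MKI67 have their highest mean at 6 h and lie lower at 24 h, HMMR, BUB1 and AURKA stay above 0 h, and TRIP13 and FOXM1 lie below 0 h at all later times.

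A wider list of mitosis genes, without the 51, showed a smaller 6 h change. It named 72 genes, of which 57 were measured. At 6 h 2 were called higher and 0 lower (2.32% and 1.22% of all genes), with a median of 0.08. The 2 were CENPI, a centromere protein gene, by 0.59 (adjusted p = 0.00487) and NCAPG, a condensin subunit gene, by 0.29 (adjusted p = 0.0376). At 12 h 3 were higher and 6 lower (7.13% and 11.3% of all genes), and at 24 h 7 were higher and 5 lower (8.59% and 9.15% of all genes). The counts called at 6 and 12 h and those called lower at 24 h were thus near the background. The order of arrays was not. Both 6 h arrays lay above both 0 h arrays in 57.9% of the list and below them in 17.5%, against 23.6% and 31.6% of all genes. Both 12 h arrays lay below both 6 h arrays in 70.2% and above them in 5.26%, against 30.3% and 27% of all genes. For 24 h and 6 h these shares were 49.1% and 7.02%, against 24.1% and 23.9%. Those higher at 24 h included CENPI, the condensin genes NCAPG, NCAPG2 and NCAPD2, and SPC24, and those lower included CDC27 (-0.32) and CDC16 (-0.29), subunits of the anaphase-promoting complex, and CENPN (-0.29).

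S-phase genes had their highest list median at 24 h. Of 46 measured S-phase genes, 0 were called at 6 h in limma (median -0.01), 0 were higher and 2 lower at 12 h (7.13% and 11.3% of all genes), and 9 were higher and 1 lower at 24 h (8.59% and 9.15% of all genes; median 0.12). The helicase genes MCM6 and MCM5 rose by 0.34 and 0.31 at 24 h and the primase gene PRIM1 by 0.31. FEN1, a flap nuclease of lagging strand synthesis, was called higher at 24 h than at 6 h, by 0.27 (adjusted p = 0.0425). The difference in time course between the lists was not tested.

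**Figure D5:**
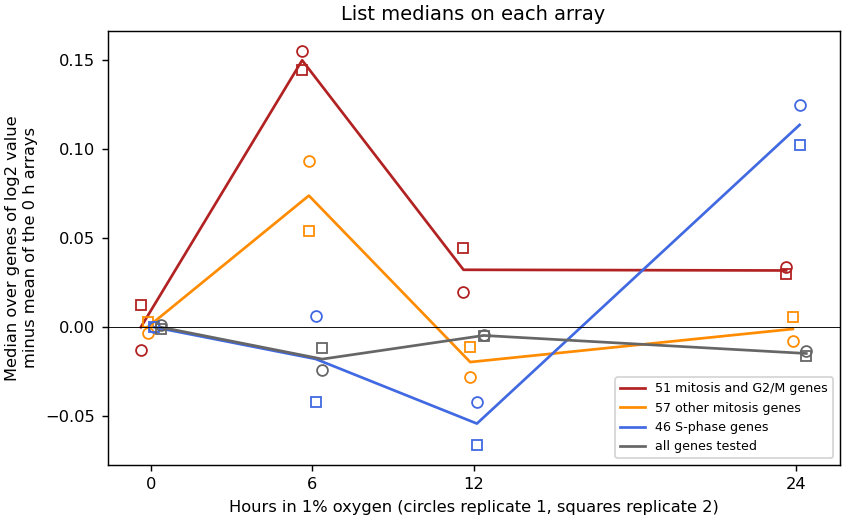
The median over the genes of a list of the log2 value minus the 0 h mean (vertical axis) is plotted for each array against hours in 1% oxygen, with circles for replicate 1, squares for replicate 2 and a line through their mean. The 51 mitosis and G2/M genes stand at 0.15 and 0.14 at 6 h and at 0.03 on both 24 h arrays, the 46 S-phase genes are highest at 24 h, and all genes tested stay near 0.

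Among 12 measured regulators of the DREAM complex and its activating counterpart, 1 was called, lower at 6 and 12 h (1.22% and 11.3% of all genes were). CDKN1A, which encodes the CDK inhibitor p21 that acts upstream of DREAM, had a mean of 9.42 before hypoxia, then 8.98, 9.01 and 9.23 after 6, 12 and 24 h (2 arrays each). All hypoxic arrays lay below both 0 h arrays, and the 24 h arrays lay between those of 0 h and of 6 and 12 h. CDKN1A fell by 0.45 ± 0.06 at 6 h (adjusted p = 0.0078) and by 0.41 at 12 h (adjusted p = 0.0043), and its 24 h change was -0.19 (adjusted p = 0.0640). MYBL2, which encodes B-MYB, had changes of -0.09, -0.15 and 0.05 at 6, 12 and 24 h, none called.

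Other probe sets of the same genes were compared as a further reading. Among the members 15 had several probe sets, with 27 beside those used. Of these 27, 25 had a 6 h change of the same sign as the probe set used, 2 were called higher and 0 lower, and their median was 0.13. The 2 belonged to HMMR and NEK2 (limma adjusted p = 0.0391 and 0.0318), and both were also called higher at 12 and 24 h. The NEK2 probe set used had a 6 h change of 0.27 that was not called. When every probe set was tested on its own, those used for CDC25C and DLGAP5 were not called at 6 h (limma adjusted p = 0.0535 and 0.0578). When all probe sets of a gene were averaged, AURKA, BUB1, CDC25C and MKI67 were not called at 6 h, with changes of 0.25, 0.24, 0.22 and 0.17.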

How the data were processed

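Total RNA from SJRH30 cells was amplified once, labelled with biotin and hybridised to 3′ Affymetrix arrays, per the labels' protocols. The authors deposited log2 values per probe set. RMA is the tool named in the submitters' processing notes, and its version is not given in the sources used here. RMA equalises arrays, so changes are relative to other transcripts of an array. Precision is limited by the number of arrays.

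The table held 22277 probe sets, of which 19064 had 1 gene symbol, and 19052 of these matched RefSeq by Entrez identifier. The brightest probe set by mean represented each of 11963 genes. One linear model of the 4 times used all 8 arrays (limma 3.58.1 under R 4.3.3, lmFit and eBayes; 4 residual and 3.68 prior degrees of freedom). Tests were two-sided, with Benjamini-Hochberg adjustment within each comparison over all genes and a threshold of 0.05. The procedure was tested on simulated data. Members and lists were chosen with earlier results of these data known. Genes given in full were, per role, up to 3 called members with the largest 6 h rise, the member with the lowest 6 h change and any called lower at 24 h than at 6 h; from other lists up to 4 called members were named, and others named in passing were chosen after their values were seen. Promoters and motifs came from RefSeq, build GRCh38.p14. Deviations of same-numbered replicates correlated at -0.11 to 0.09 between times, so the numbers did not pair the arrays. Alternatives were another choice of probe set, scaling, variance model, filter, replicate block and leaving out each array.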

Additional observations from a re-analysis of the deposited data

How the results depend on the processing

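The counts of members called depended on the processing. Among the 14 genes given in full, no called change turned its sign in the alternatives run. Small uncalled changes did, in AURKB, CDC20, KIF2C and PRC1 among others. Signs of the other called members were not compared. An MKI67 probe set other than the one used changed by -0.03 and -0.05 at 6 and 12 h, neither called, where MKI67 was called higher. At 6 h the count of 9 higher became 20 when limma's variance followed intensity (the trend) and 3 with a replicate block, and 0 to 9 when each array was left out. At 12 h the count of 9 became 5 with the mean of all probe sets (6.75% of all genes), and it fell without any 0 h, 6 h or 12 h array. At 24 h the count of 5 became 3 with the mean of all probe sets (8.07% of all genes) and 2 in a fit of only the 2 times compared (7.22%). These counts were near or below the background. The 24 h count also fell without any 0 h, 6 h or 24 h array. With the trend 6 were higher and 5 lower at 24 h, against 11.3% and 12.8% of all genes. The count lower at 12 h than at 6 h, 0, became 2 with the trend and 1 without the dimmest 25% of genes (1.60% of the genes kept). The count lower at 24 h than at 6 h, 1, became 16 with the trend, 2 with the mean of probe sets, 2 without the dimmest genes, and 0 with further quantile normalization, median centring, only the 2 times, the replicate block or any array left out. The trend and the block changed all genes too: at 6 h 5.60% and 1.63% of all genes were called higher. With the trend 4.29% were called lower at 24 h than at 6 h and 4.63% lower at 12 h than at 6 h. With the mean of probe sets 1.04% of all genes were called lower at 24 h than at 6 h. Without the dimmest genes 2.81% of those kept were. Scaling moved the 12 h values: 31 members lay above 0 h as deposited, 40 after quantile normalization and 38 after centring. Where an array was left out, the lone array of its time was assumed to vary like the others. The cause of these moves was not tested. The replicate numbers did not pair the arrays. With 2 arrays per time, the calls rest on small changes.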
